A study of Mus musculus with 16 samples.

Results

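The integrin and laminin genes were taken by symbol from the GENCODE M39 annotation, as protein-coding genes named Itga, Itgb, Lama, Lamb or Lamc with a digit or, for integrins, a single letter. Itgb1bp1 and Itgb3bp were dropped. The rule gave 39 genes out of 51912 in the table, and each of the 39 was found there. They were 18 integrin alpha genes, 9 integrin beta genes, 11 laminin genes and Itgb1bp2. Itgb1bp2 encodes melusin, a muscle protein that binds the cytoplasmic tail of the Itgb1 chain and is no integrin chain itself, so it is described apart. Of the 39 genes, 36 reached 10 counts, summed over the 4 libraries, in every group and were tested. Itgax, Itgb2l and Lama1 did not reach that count in sham hearts and are given as levels.

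Integrins and laminins are the receptors and the basement membrane proteins through which heart cells hold on to the matrix around them. An integrin is a pair of 1 alpha and 1 beta chain in the cell membrane. The pair binds matrix or a protein of another cell outside and links to actin inside. A laminin is a trimer of an alpha, a beta and a gamma chain that polymerises into the sheet around cardiomyocytes and under endothelium. In the heart, pairs built on Itgb1 are the main matrix receptors of cardiomyocytes and stromal cells, while pairs built on Itgb2 are carried by leukocytes.

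RNA was sequenced from the full ventricles of neonatal mice, with 4 libraries in each of 4 groups. WT SH were wild type C57BL/6J mice after a sham surgery, KO SH were whole-body Lrrc10-/- mice on a C57BL/6 background after the same sham surgery, WT MI were wild type mice after a myocardial infarction (MI) by coronary ligation, and KO MI were Lrrc10-/- mice after MI. Surgery was on postnatal day 1 and ventricles, with tissue above and below the ligation, were collected 7 days later. The knockout was present in all cells from conception, so its effect after MI includes whatever preceded the injury. The libraries are numbered 1 to 4, except that KO MI holds 1, 2, 3 and 7, and values are given in that order. The labels do not say in words that each library is 1 mouse, and p-values measure the spread between these libraries.

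Total counts ranged from 37842114 to 57470159 in WT SH, from 37962875 to 50123038 in KO SH, from 43166794 to 46184203 in WT MI and from 33783874 to 49334247 in KO MI. Levels are given as CPM, a gene's counts relative to the TMM-scaled size of its library, and 3 counts correspond to between 0.0577 and 0.0858 CPM. Lrrc10 was at 35.6, 29.1, 30.7 and 27.5 CPM in WT SH and at 26.3, 29.2, 28.1 and 27.1 CPM in WT MI, and it had 0 counts in all 8 KO libraries. The cardiomyocyte markers, 8 genes led by Ttn, summed to between 63880 and 87860 CPM, so every library held cardiomyocyte RNA as labelled.

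Some libraries went against their labels or stood apart. The groups are described as sex balanced, but Xist, which is expressed from the inactive X chromosome of females, was above 100 CPM in 0 of 4 WT SH libraries and in 2 of 4 libraries of each other group. Skeletal muscle markers, 10 genes led by Myh8, summed to 72.0 CPM in KO MI 2 and 116 CPM in KO MI 7 and to 12.8 CPM or less in the other 14 libraries. Atrial markers, led by Nppa, summed to 2428 CPM in KO MI 2 and 857 CPM in KO MI 3, against 341 CPM or less elsewhere. Macrophage markers were highest in KO MI 3, at 151 CPM. Where a call on an integrin or laminin gene rested on these libraries, the result without them is also given.

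The order of the genes was set on a per-length scale, CPM per kb of the canonical transcript, since a long transcript gathers more reads. Itgb1 was the most abundant of the 39 genes. It reached 108 ± 5.43 CPM per kb in WT SH (SD, n = 4), 118 ± 1.20 in KO SH, 113 ± 4.90 in WT MI and 158 ± 46.4 in KO MI. Itgb1 made up 89.5% ± 0.308 of all integrin beta transcripts per length in WT SH and 91.4% ± 1.82 in KO MI. Itgb5, which pairs with Itgav, followed at a mean of 7.08 CPM per kb over the 16 libraries, and the ranges of both genes over those libraries did not meet. Itgb6, another partner of Itgav, followed at 2.95 CPM per kb. Below it, the ranges of neighbouring beta genes overlapped, from Itgb3 at 1.28 and Itgb2 at 1.24 to Itgb8 at 0.519, Itgb4 at 0.333, Itgb7 at 0.0709 and Itgb2l at 0.036 CPM per kb.

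Among alpha chains the laminin receptor Itga6 led with 18.6 CPM per kb, then Itga9, which binds tenascin and osteopontin, with 16.3 and the fibronectin receptor Itga5 with 15.5. These 3 overlapped across libraries. The collagen receptor Itga1 at 10.1, the muscle laminin receptor Itga7 at 8.55 and Itgav at 7.62 CPM per kb lay below all libraries of Itga5 and overlapped in turn. Itga8, a nephronectin receptor, and Itga3, a laminin receptor, were near 2 CPM per kb, at 2.24 and 2.18. Itgam, at 2.06 CPM per kb over all libraries, overlapped Itga3, and its place in the order differed by group. Its mean was 0.860 CPM per kb in WT SH and 0.670 in KO SH, below both Itga8 and Itga3, but 2.59 in WT MI and 4.10 in KO MI, above both. Itga4 followed at 1.22 CPM per kb, which overlapped Itgam, and then Itga2, Itgal, Itga10, Itga11, Itga2b, Itgax, Itgae and Itgad from 0.573 down to 0.034 CPM per kb. The place of Itgax also differed by group. Its mean was 0.0101 CPM per kb in WT SH and 0.0143 in KO SH, the lowest of the alpha chains. Post-MI it was 0.357 in WT and 0.242 in KO, above Itga10 and Itga2b in both.

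The laminin chains fell into a high and a low set. Lamc1 at 51.2, Lama4 at 41.6, Lamb1 at 41.1 and Lama2 at 36.8 CPM per kb overlapped neighbour by neighbour, and Lamb2 at 26.1 CPM per kb lay below all of them. Lama2 is the chain of muscle basement membranes and Lama4 that of endothelium. Lama5 followed at 3.47, and Lama3, Lamb3, Lamc3 and Lama1 ran from 0.650 down to 0.0184 CPM per kb. In WT SH, Lama4 was 51.9% ± 0.683 and Lama2 43.7% ± 0.709 of laminin alpha transcripts per length, Lamb1 was 58.9% ± 2.26 of beta and Lamc1 98.2% ± 0.172 of gamma (SD, n = 4). Itgb1bp2 was at a mean of 59.0 CPM per kb, second to Itgb1 among the 39 genes, and its range overlapped that of Lamc1. The plot of levels per length gives the genes described here by group.

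**Figure D1:**
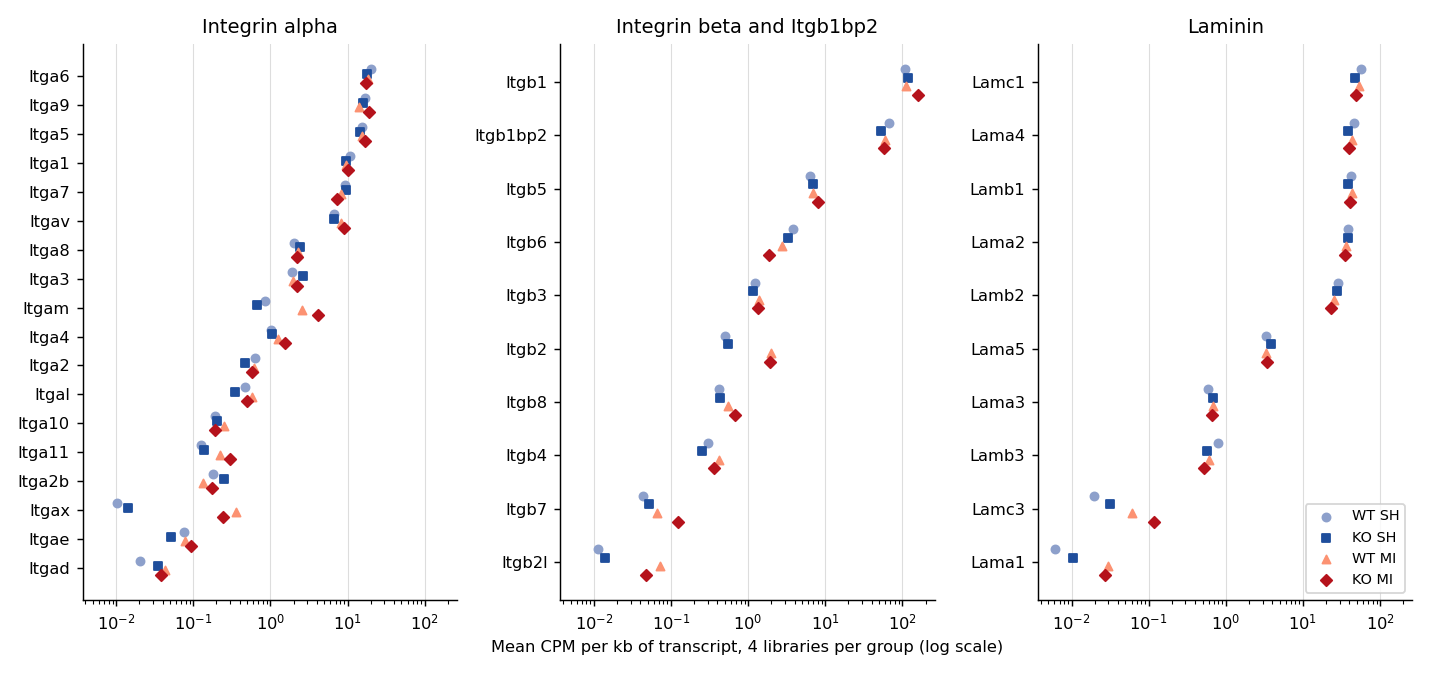
Mean level of the integrin and laminin genes described in the text in the 4 groups, in CPM per kb of transcript on a log axis, for integrin alpha genes, integrin beta genes with Itgb1bp2, and laminin genes. Each symbol is the mean of 4 libraries. Itgb1, Itgb1bp2 and 5 laminin chains lie above 20 CPM per kb in every group, and Itgam, Itgb2, Itgax and Lamc3 have higher means in both MI groups than in both sham groups.

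The leukocyte integrins Itgam and Itgb2 were called higher post-MI in both genotypes. Itgam and Itgb2 encode the 2 chains of the complement receptor of neutrophils, monocytes and macrophages, Itgax a sister alpha chain of dendritic cells and some macrophages, and Itgal the alpha chain that binds ICAM proteins on leukocytes. Itgam, Itgax and Itgal lie on chromosome 7, where Itgax starts 10.9 kb after the end of Itgam, and Itgb2 lies on chromosome 10. Their upstream sequences are shown because the 3 alpha chains pair with Itgb2 and the levels of the 4 genes are compared next. The 150 bases before the start of the canonical transcript were read from GRCm39, all on the plus strand. Capitals mark GAGGAA on either strand (TTCCTC as printed), the core letters of sites of the myeloid factor PU.1.
Itgam, chr7:127661658-127661807: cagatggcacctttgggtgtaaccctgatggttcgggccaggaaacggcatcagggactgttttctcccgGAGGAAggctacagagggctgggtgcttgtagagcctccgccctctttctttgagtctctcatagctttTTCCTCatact
Itgb2, chr10:77365936-77366085: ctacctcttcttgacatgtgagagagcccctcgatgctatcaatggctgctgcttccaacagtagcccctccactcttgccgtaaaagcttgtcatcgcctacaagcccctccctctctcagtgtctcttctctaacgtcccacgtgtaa
Itgax, chr7:127728518-127728667: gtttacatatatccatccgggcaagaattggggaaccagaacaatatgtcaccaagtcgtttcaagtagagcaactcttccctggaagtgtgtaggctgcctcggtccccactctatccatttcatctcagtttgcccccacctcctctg
Itgal, chr7:126895282-126895431: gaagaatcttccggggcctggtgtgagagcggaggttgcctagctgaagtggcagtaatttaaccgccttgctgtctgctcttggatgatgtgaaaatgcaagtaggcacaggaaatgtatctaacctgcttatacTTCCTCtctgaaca
Itgam held the letters at 80 to 75 bases before its start and, on the other strand, at 11 to 6. Itgal held them on the other strand at 14 to 9 bases before its start, and the windows of Itgb2 and Itgax did not hold them. The same search over the 150 bases before 21426 protein-coding genes found the letters in 14.3%, and 10 of the 39 genes held them. A match describes the letters and was not tested as a site.

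After MI in wild type hearts, 2 of the 36 tested genes were called, both leukocyte integrins and both higher. A gene was called where its edgeR adjusted p fell under 0.1 and its log2 fold change lay 0.5 or more from 0. This is 5.56% of the genes, against 2.78% of all 20159 genes tested in that comparison and 2.13% called in the higher direction. The 4 WT MI and 4 WT SH libraries did not overlap for 10 of the 36 genes (27.8%), against 12.1% of all genes. Itgb2 was at 1.65, 1.31, 1.94 and 1.064 CPM in WT SH and at 3.30, 8.39, 7.26 and 4.84 CPM in WT MI. All 4 WT MI libraries were above all 4 WT SH libraries (log2 fold change 1.99 ± 0.31, SE, edgeR adjusted p = 0.00227; exact permutation p = 0.0286, two-sided, the smallest that 4 against 4 can give). Itgam was at 4.02, 3.02, 2.63 and 3.22 CPM in WT SH and at 6.31, 14.5, 8.86 and 9.14 CPM in WT MI, again without overlap (log2 fold change 1.58 ± 0.39, SE, edgeR adjusted p = 0.0354). The Itgam call rests on WT MI 2, since without it the edgeR adjusted p was 0.126 with a log2 fold change of 1.32. In bulk tissue, more leukocytes and more integrin RNA per leukocyte cannot be told apart.

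Post-MI in Lrrc10-/- hearts, 11 of 36 genes were called, 9 higher and 2 lower. That is 30.6% of the genes, against 7.42% of all genes tested, 5.31% in the higher and 2.11% in the lower direction. At an edgeR adjusted p under 0.1 with no minimum fold, 18 of 36 genes passed, against 17.5% of all genes. The 4 KO MI and 4 KO SH libraries did not overlap for 12 of the 36 genes (33.3%), against 14.9% of all genes. The median log2 fold change of the 36 genes was 0.17, against -0.010 over all genes tested. Fits without 1 library gave between 6 and 12 called genes, with 6 both without KO SH 3 and without KO MI 3.

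Itgam was at 2.30, 2.08, 2.77 and 2.89 CPM in KO SH while KO MI 1, 2, 3 and 7 had 5.29, 12.4, 31.6 and 12.0 CPM. KO MI 3 was the highest by far, and the lowest KO MI library was still above every KO SH library (log2 fold change 2.61 ± 0.40, SE, edgeR adjusted p = 0.00101). Without KO MI 3 the log2 fold change was 1.98. Itgb2 was at 1.51, 1.76, 1.77 and 1.39 CPM in KO SH and at 2.87, 5.10, 8.63 and 6.02 CPM in KO MI, with no overlap (log2 fold change 1.81 ± 0.31, SE, edgeR adjusted p = 0.00211). Both calls held in all 8 fits that left out 1 library and with KO MI 2 and 7 left out together.

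Itgax had too few counts in sham hearts for the filter, with 7 counts in WT SH and 10 in KO SH over 4 libraries each, against 268 in WT MI and 172 in KO MI. Its level was 0.0577, 0.0267, 0.0572 and 0.0242 CPM in WT SH and 0.113, 0.0270, 0.0417 and 0.0525 CPM in KO SH. It was 0.526, 1.76, 1.98 and 1.59 CPM in WT MI and 0.427, 0.807, 0.559 and 2.17 CPM in KO MI, so both MI groups were above both sham groups in every library. When no filter was applied, Itgax was called in both genotypes (edgeR adjusted p = 8.62e-06 for WT and 9.61e-05 for KO), though its fold change against so few sham counts is uncertain. Lama1, which is mostly embryonic, had 9 summed counts in WT SH and 53 in WT MI (edgeR adjusted p = 0.0415 with no filter), while in KO hearts it had 17 and 50 counts (edgeR adjusted p = 0.175). Itgb2l, a relative of Itgb2 known from neutrophils, had 5 summed counts in WT SH and 6 in KO SH, against 35 in WT MI and 23 in KO MI, and was not called with no filter.

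Itga4 and Itgal were called post-MI in KO, with smaller fold changes than Itgam and Itgb2. Itga4, which pairs with Itgb1 to bind VCAM1 and fibronectin on lymphoid and myeloid cells, was at 10.2, 10.7, 9.78 and 10.9 CPM in KO SH and 12.1, 16.1, 19.7 and 13.2 CPM in KO MI. The groups did not overlap and the gene was called (log2 fold change 0.55 ± 0.13, SE, edgeR adjusted p = 0.01), but without KO MI 3 the log2 fold change was 0.41, short of the minimum. In WT hearts it was at 10.1, 9.28, 10.98 and 9.77 CPM in WT SH and 10.7, 15.1, 12.7 and 12.1 CPM in WT MI, with 1 WT MI library inside the sham range (log2 fold change 0.34 ± 0.13, SE, edgeR adjusted p = 0.175). Itgal was at 1.62, 1.89, 1.94 and 1.78 CPM in KO SH and 3.05, 1.85, 2.62 and 2.84 CPM in KO MI, where KO MI 2 lay inside the sham range. It was called (log2 fold change 0.51 ± 0.18, SE, edgeR adjusted p = 0.0787), but its adjusted p was 0.1 or more in 7 of the 8 fits that left out 1 library, all but the one without KO MI 2. In WT the gene ran from 1.84 to 3.25 CPM in WT SH and from 2.38 to 3.37 CPM in WT MI (edgeR adjusted p = 0.489). Itgb7, Itgae and Itgad were each under 0.8 CPM in every library, and none was called in any comparison with all libraries. Itgb7, with a post-MI log2 fold change of 1.25 in KO, was called there without KO MI 1.

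Markers of the cells that carry these integrins moved in the same comparisons. The 11 macrophage markers, of which Mrc1 was the most abundant, summed to 79.2, 80.8, 71.6 and 69.0 CPM in WT SH and 65.4, 71.1, 64.5 and 64.0 CPM in KO SH. Post-MI the sums were 88.7, 119.5, 101 and 109 CPM in WT and 77.7, 106, 151 and 104 CPM in KO. In KO MI against KO SH 9 of 11 were called higher (6 without KO MI 3), and in WT MI against WT SH 1 of 11, Lyz2. The 7 neutrophil markers, with S100a9 the most abundant and Ly6g and Mpo too low to test, summed to 1.88, 0.962, 1.32 and 1.43 CPM in WT SH and 3.16, 2.92, 3.63 and 3.44 CPM in KO SH. Post-MI those sums were 5.47, 18.8, 11.7 and 15.8 CPM for WT and 5.31, 6.77, 12.8 and 9.10 CPM for KO. Of the 5 tested, 5 were called higher post-MI in WT and 3 in KO. Between the sham groups 3 neutrophil markers were called higher and 3 macrophage markers (Fcgr1, C1qb and C1qa) lower in KO, while Itgam had a log2 difference of -0.37 ± 0.42 and Itgb2 of 0.11 ± 0.34 (SE), neither called. KO MI 3, with the highest Itgam, Itgb2, Itga4 and Itgb7, also had the highest macrophage sum, and its B cell markers summed to 6.65 CPM against 3.16 CPM or less in the other libraries. WT MI 1 and KO MI 1 had the lowest Itgam, Itgb2 and Itgax of their groups and the lowest macrophage and neutrophil sums. How far these markers account for the integrin levels was not tested.

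**Figure D2:**
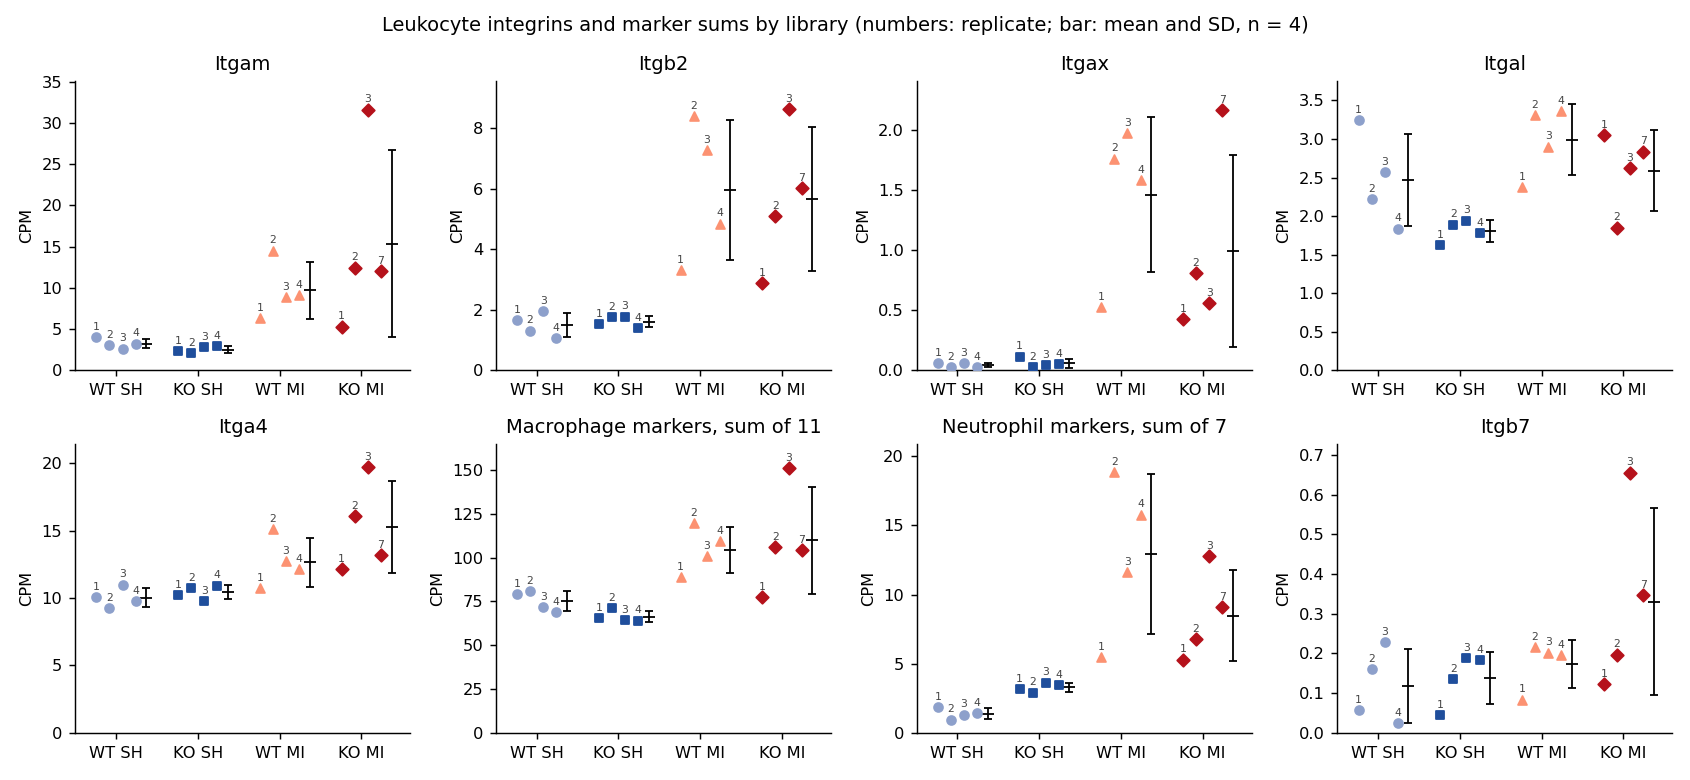
Levels of Itgam, Itgb2, Itgax, Itgal, Itga4 and Itgb7 and the summed levels of macrophage and neutrophil markers, in CPM, in each of the 16 libraries. Each point is a library with its replicate number, and the bar beside each group is the mean and SD of 4 libraries. Itgam, Itgb2 and Itgax lie above the sham libraries in every MI library, and KO MI 3 is the highest for Itgam, Itgb2 and Itga4.

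Among 12124 protein-coding genes with a mean of at least 1 CPM, those whose log2(CPM + 0.5) followed Itgb2 most closely over the 16 libraries were Ctss (Pearson r = 0.968), Cd84 (0.966) and Ifi204 (0.965). For Itgam they were Ccl6 (0.977), Dock2 (0.977) and Cd84 (0.967). These values describe 16 libraries that share the 4 group differences. Ctss is a lysosomal protease of antigen-presenting cells and Ccl6 a myeloid chemokine.

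Apart from the leukocyte genes, 6 called genes are described for KO hearts post-MI. Itga11, a collagen receptor of fibroblasts, was at 0.496, 0.918, 0.605 and 0.918 CPM in KO SH and at 1.24, 2.87, 1.25 and 0.990 CPM in KO MI (log2 fold change 1.13 ± 0.35, SE, edgeR adjusted p = 0.0424). The groups did not overlap, but KO MI 2 stood far above the others of its group, and without it the gene was not called (log2 fold change 0.68, edgeR adjusted p = 0.224). The call was also lost without KO SH 1 and without KO SH 3. In WT it was at 0.461, 1.02, 0.343 and 0.846 CPM in WT SH and 1.07, 1.42, 1.17 and 0.999 CPM in WT MI, which overlapped (log2 fold change 0.81 ± 0.36, SE, edgeR adjusted p = 0.261). Itgb8, which binds latent TGF-beta together with Itgav, was at 3.74, 2.84, 3.86 and 4.14 CPM in KO SH and 4.55, 6.97, 8.33 and 2.73 CPM in KO MI. KO MI 7 lay below every KO SH library, and the call (log2 fold change 0.64 ± 0.23, SE, edgeR adjusted p = 0.0846) was lost without KO MI 2, without KO MI 3 and without each KO SH library.

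Itgb4, which pairs with Itga6, was at 1.58, 1.54, 1.46 and 1.70 CPM in KO SH and 1.93, 2.42, 2.79 and 1.77 CPM in KO MI, all 4 above the sham libraries (log2 fold change 0.51 ± 0.16, SE, edgeR adjusted p = 0.0413). The call was lost without KO SH 3, KO MI 2 or KO MI 3. In WT it was at 1.88, 2.09, 1.54 and 2.06 CPM in WT SH and 2.42, 2.52, 2.45 and 3.08 CPM in WT MI, also without overlap, but the test did not pass (log2 fold change 0.47 ± 0.15, SE, edgeR adjusted p = 0.112). The laminin chains Lama3 and Lamb3, which are found in epithelium, were not called in either genotype, with log2 fold changes post-MI of -0.049 and -0.10 in KO.

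Lamc3 was at 0.180, 0.216, 0.167 and 0.184 CPM in KO SH and 0.183, 0.945, 1.002 and 0.615 CPM in KO MI, where KO MI 1 lay inside the sham range (log2 fold change 1.88 ± 0.53, SE, edgeR adjusted p = 0.0303). Its counts were low, 31 in KO SH and 132 in KO MI over 4 libraries. With KO MI 2 and 7 left out together its edgeR adjusted p was 0.107. In WT it was at 0.115, 0.214, 0.0572 and 0.0726 CPM in WT SH and 0.126, 0.710, 0.405 and 0.195 CPM in WT MI (log2 fold change 1.62 ± 0.60, SE, edgeR adjusted p = 0.17), and DESeq2 called it higher there while edgeR did not (DESeq2 log2 fold change 1.64, adjusted p = 0.0947). Markers of mesothelium, the epithelium over the heart, moved in the same comparisons: their sum over 6 genes led by Wt1 was 17.1, 18.3, 17.5 and 16.7 CPM in WT SH, 22.1, 24.8, 21.2 and 19.9 CPM in KO SH, and post-MI it was 28.2, 37.1, 33.6 and 31.5 CPM in WT and 18.9, 35.9, 52.2 and 29.0 CPM in KO. Of the 6, 5 were called higher post-MI in WT and 3 in KO (0 without KO MI 3). Between the sham groups 4 of the 6 were called higher in KO. There Itgb4 had a log2 difference of -0.27 ± 0.16 and Lamc3 of 0.68 ± 0.66 (SE), neither called. The part of these markers in the levels of Itgb4 and Lamc3 was not tested.

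The 2 genes called lower post-MI in KO were Itgb6 and Itga2b. Itgb6, whose pair with Itgav activates TGF-beta, was at 20.3, 15.4, 12.2 and 15.8 CPM in KO SH and 13.7, 6.46, 10.7 and 5.003 CPM in KO MI. The lowest levels were in KO MI 2 and 7, and KO MI 1 lay inside the sham range (log2 fold change -0.82 ± 0.22, SE, edgeR adjusted p = 0.0215). With KO MI 2 and 7 left out together the log2 fold change was -0.38 and the call was lost (edgeR adjusted p = 0.113). The Itgb6 call was also lost when only the KO MI and KO SH libraries were fitted. In WT hearts Itgb6 was at 17.3, 19.8, 18.4 and 18.5 CPM in WT SH and 12.0, 12.9, 13.6 and 15.0 CPM in WT MI, which did not overlap (log2 fold change -0.47 ± 0.21, SE, edgeR adjusted p = 0.275). Itga2b, the alpha chain of the platelet fibrinogen receptor, was at 1.26, 1.65, 1.82 and 1.52 CPM in KO SH and 1.08, 1.14, 1.08 and 0.963 CPM in KO MI (log2 fold change -0.55 ± 0.18, SE, edgeR adjusted p = 0.0545). No library overlapped, but the call was lost without KO SH 2, KO SH 3 or KO MI 3. It was also lost with KO MI 2 and 7 left out together (log2 fold change -0.53, edgeR adjusted p = 0.152) and with no filter on low counts (edgeR adjusted p = 0.101). In WT it was at 1.096, 1.12, 1.23 and 0.992 CPM in WT SH and 0.946, 0.710, 1.057 and 0.608 CPM in WT MI (log2 fold change -0.42 ± 0.19, SE, edgeR adjusted p = 0.267). Platelet markers, 5 genes led by Pf4, summed to between 2.92 and 4.32 CPM in the 16 libraries, and 0 of the 4 tested were called in either MI comparison by edgeR or DESeq2, with 0 of 4 at an unadjusted p under 0.05 both times.

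A further 7 genes passed the adjusted p in KO hearts below the minimum fold. The laminin receptor Itga7 was at 38.9, 39.9, 36.7 and 38.98 CPM in KO SH and 32.4, 27.0, 31.7 and 28.1 CPM in KO MI without overlap (log2 fold change -0.37 ± 0.067, SE, edgeR adjusted p = 0.0027). Lamb2, a laminin beta chain of muscle and vessels, ran from 150.4 to 157 CPM in KO SH and from 113 to 147 CPM in KO MI (log2 fold change -0.25 ± 0.070, SE, edgeR adjusted p = 0.0285). The post-MI log2 fold changes of Itgav, Itgb1, Itga2, Itga5 and Lama2 were 0.42, 0.43, 0.32, 0.21 and -0.13, with edgeR adjusted p from 0.0241 to 0.0972. KO MI 2 was the highest library for Itgav, Itgb1 and Itga5. Without KO MI 2 the log2 fold change was 0.28 for Itgav (edgeR adjusted p = 0.0899), 0.20 for Itgb1 (edgeR adjusted p = 0.0487) and 0.092 for Itga5 (edgeR adjusted p = 0.293). Itgav and Itgb1 thus still passed the adjusted p there, with smaller fold changes, while Itga5 did not. Itga5 no longer passed the adjusted p in 5 of the 8 fits that left out 1 library, Itga2 in 3 and Lama2 in 7. With KO MI 2 and 7 left out together Lamb2 was at -0.15 (edgeR adjusted p = 0.171), while without KO MI 7 alone Itgav and Itgb1 passed the minimum fold and were called. The 3 major laminin chains Lama4, Lamb1 and Lamc1 had post-MI log2 fold changes of 0.057 ± 0.043, 0.084 ± 0.052 and 0.035 ± 0.047 (SE) in KO and -0.075 ± 0.042, 0.064 ± 0.052 and -0.094 ± 0.047 in WT. In the plot of MI responses Itgam, Itgb2 and Lamc3 lie furthest from 0 and the major laminins next to it.

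**Figure D3:**
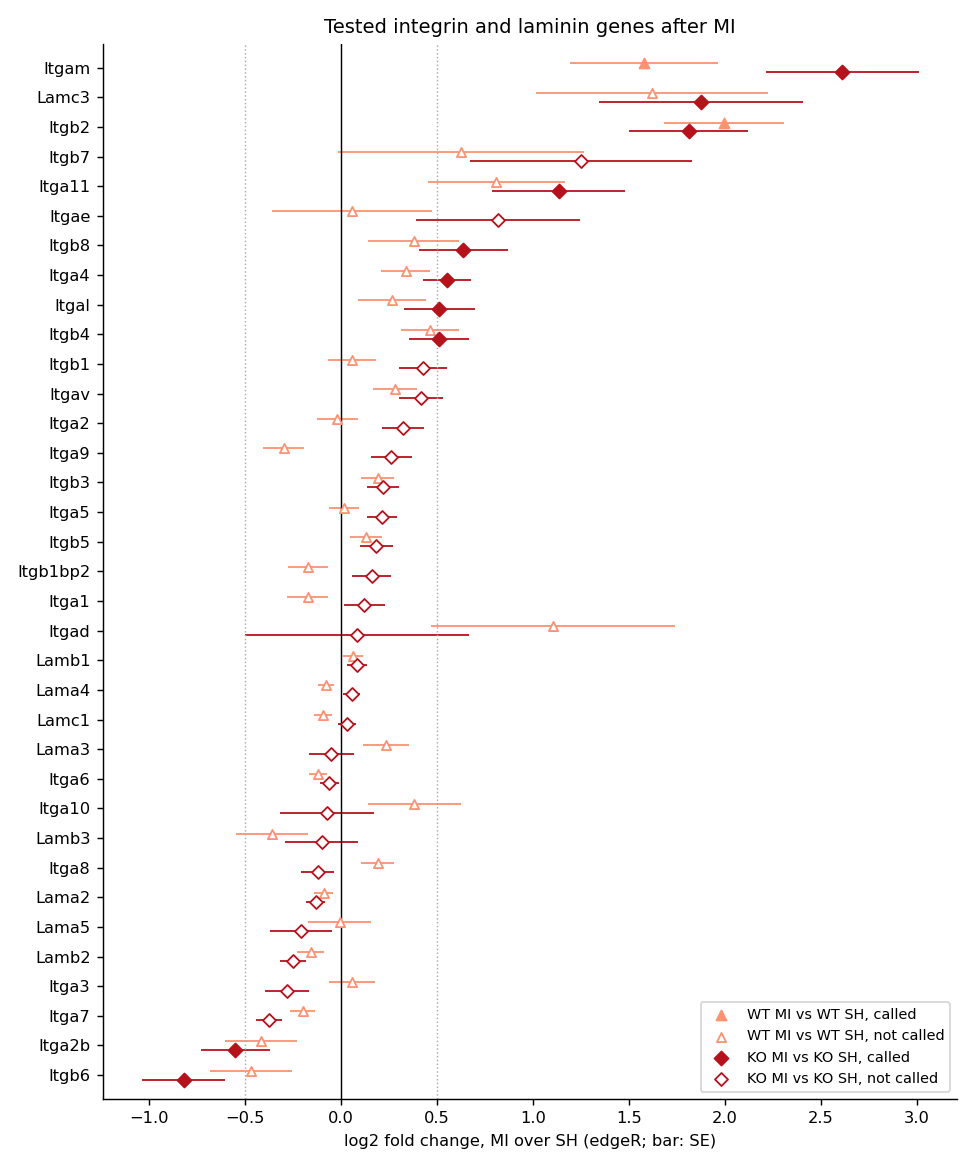
Log2 fold changes post-MI over sham for 35 tested genes, in wild type hearts (triangles) and Lrrc10-/- hearts (diamonds), with bars for the SE of the edgeR fit. Filled symbols are called genes, 2 in WT and 10 in KO, and dotted lines mark the minimum of 0.5 on either side of 0.

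Whether the MI response differed by genotype was tested as an interaction. None of the 36 genes was called by edgeR (0 of 36, against 0.0248% of all genes), and 6 had an unadjusted p under 0.05. DESeq2 called 1 of the genes, Itga9, where it called 289 of 12730 among all genes it tested. The genes called in KO but not in WT are therefore not shown to respond differently. For Itgam the interaction was 1.03 ± 0.55 (SE, log2) with an edgeR adjusted p of 0.422, and for Itgb2 it was -0.18 ± 0.44 with 0.891.

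Itga9 had the lowest interaction p of the 36 genes. It was at 126, 122.9, 118 and 115 CPM in WT SH and at 97.6, 99.9, 98.8 and 95.8 CPM in WT MI, so every WT MI library was below every WT SH library (log2 fold change -0.30 ± 0.11, SE, edgeR adjusted p = 0.148). In KO it was at 112, 117, 109.5 and 103 CPM in KO SH and at 129.95, 174, 126 and 100.5 CPM in KO MI, and KO MI 7 lay below all 4 KO SH libraries. The interaction was 0.56 ± 0.15 (SE, log2) with an edgeR adjusted p of 0.176, and 0.0309 by DESeq2. With KO MI 2 and 7 left out together it was 0.51 with an edgeR adjusted p of 0.00139, while without KO MI 2 alone it was 0.40 with 0.189.

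Between genotypes post-MI, none of the 36 genes was called by edgeR or by DESeq2, although 1.73% of all genes were, and 9 had an unadjusted p under 0.05. At an adjusted p under 0.1 with no minimum fold there were 2, Itga9 and Itgb1, both higher in KO, against 3.07% of all genes. The 4 KO MI and 4 WT MI libraries did not overlap for 5 of the 36 genes (13.9%), 2 higher and 3 lower in KO. Of all 20159 genes tested, 552 lay higher and 752 lower without overlap. The 3 lower genes were Lama4 and Lamc1, described below, and Itga7 (log2 fold change -0.16 ± 0.067, SE, edgeR adjusted p = 0.307). Itga9 did not overlap between KO MI and WT MI (log2 fold change 0.44 ± 0.11, SE, edgeR adjusted p = 0.0402; exact permutation p = 0.0286). Without KO MI 2 the log2 fold change was 0.28 (edgeR adjusted p = 0.0638), and the adjusted p was 0.1 or more without WT MI 1 or WT MI 4. Itgb1, the common beta chain, was at 575, 557, 539 and 596 CPM in WT MI and 681, 1135, 733 and 623 CPM in KO MI. All KO MI libraries were above all WT MI libraries (log2 fold change 0.49 ± 0.13, SE, edgeR adjusted p = 0.0562), but KO MI 2 was far above the rest, and without it the log2 fold change was 0.26 with an edgeR adjusted p of 0.0319. Leaving out any 1 WT MI library brought the adjusted p of Itgb1 to 0.1 or more, while without KO MI 1, KO MI 3 or KO MI 7 the gene was called. In sham hearts Itgb1 was at 554, 575, 531 and 512 CPM in WT SH and 581, 591, 593 and 593 CPM in KO SH (log2 fold change 0.12 ± 0.13, SE, edgeR adjusted p = 0.622).

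KO MI 2 also held the highest levels of several partners. Its Itga5 was 91.2 CPM against 65.3, 67.4 and 69.2 CPM in the other KO MI libraries, its Itga1 148 CPM against 86.3 to 118 CPM, and its Itgav 84.0 CPM against 47.4 to 71.2 CPM. The 39 genes together took 0.367% of the counts of KO MI 2, and between 0.246% and 0.300% of those of every other library. In that library the mitochondrial ribosomal RNA mt-Rnr2 took 29.8% of the counts, the least of the 16, where the others had 32.5% to 37.6%. Its skeletal muscle and atrial marker sums were given above, and their part in the level of Itgb1 was not tested.

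**Figure D4:**
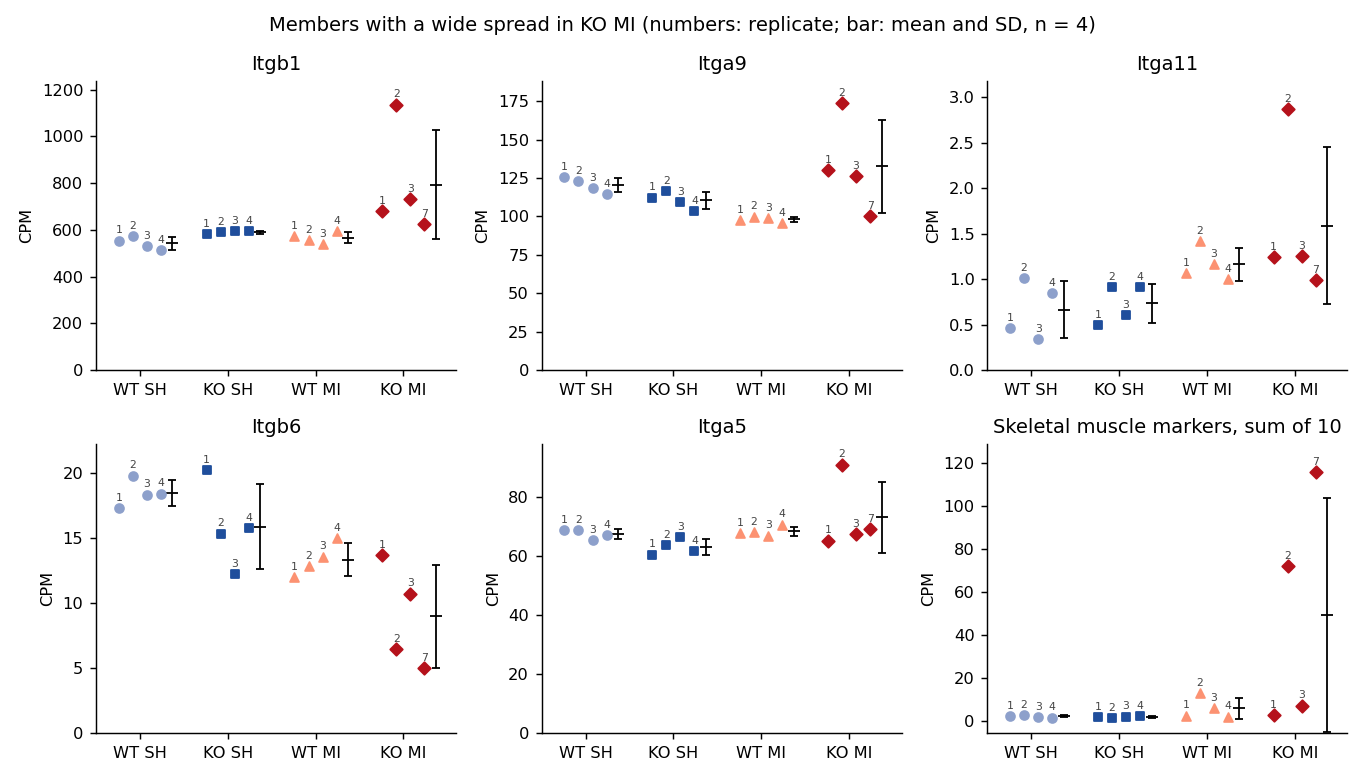
Levels in CPM of Itgb1, Itga9, Itga11, Itgb6 and Itga5 and the summed level of 10 skeletal muscle markers in each of the 16 libraries. Points carry their replicate number and bars give the mean and SD of 4 libraries. KO MI 2 is the highest library for Itgb1, Itga9, Itga11 and Itga5, and KO MI 7 is the lowest for Itgb6.

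In sham hearts none of the 36 genes was called between KO and WT by edgeR or by DESeq2, where 5.01% of all genes were called, and 11 had an unadjusted p under 0.05. With no minimum fold 7 passed an adjusted p under 0.1, 2 higher and 5 lower, against 12.3% of all genes. Without overlap between the groups were 10 of 36 genes (27.8%), against 18.5% of all genes. The KO SH libraries are also the control group of the MI comparison in KO, so a low or a high level in KO SH enters both. Itga2b ran from 0.963 to 1.14 CPM in KO MI and 0.992 to 1.23 CPM in WT SH, against 1.26 to 1.82 CPM in KO SH. Itgal ran from 1.85 to 3.05 CPM in KO MI and 1.84 to 3.25 CPM in WT SH, against 1.62 to 1.94 CPM in KO SH.

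The vessel laminin chain Lama4 and the common gamma chain Lamc1 had the lowest adjusted p in sham hearts, both lower in KO and both below the minimum fold. Lama4 was at 286, 271, 275 and 272 CPM in WT SH and 223, 234, 233 and 228 CPM in KO SH, with all KO libraries below all WT libraries (log2 fold change -0.27 ± 0.043, SE, edgeR adjusted p = 0.00122; exact permutation p = 0.0286). Lamc1 was at 484, 447, 429 and 427 CPM in WT SH and 367, 380.4, 377 and 376 CPM in KO SH, also apart (log2 fold change -0.25 ± 0.047, SE, edgeR adjusted p = 0.0042). Both kept an edgeR adjusted p under 0.02 in all 8 fits that left out 1 library. With sex inferred from Xist as a covariate the log2 fold changes were -0.27 for Lama4 and -0.25 for Lamc1 (edgeR adjusted p = 0.00402 and 0.0106). Lamb1, whose locus overlaps Dld on the other strand, was at 257, 246, 247 and 218 CPM in WT SH and 217, 229, 224 and 221 CPM in KO SH, which overlapped (log2 fold change -0.12 ± 0.052, SE, edgeR adjusted p = 0.168), and Lama2 was at 384, 376, 359 and 369.6 CPM in WT SH against 361, 379, 355 and 373 CPM in KO SH (log2 fold change -0.021 ± 0.049, SE, edgeR adjusted p = 0.844).

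Post-MI, Lama4 was at 265, 258, 266 and 259 CPM in WT MI and 242, 244, 228 and 242 CPM in KO MI, and again no KO library reached the WT range (log2 fold change -0.13 ± 0.042, SE, edgeR adjusted p = 0.138). Lamc1 was at 417, 409.8, 423 and 425 CPM in WT MI and 385, 391, 370.5 and 391 CPM in KO MI, likewise apart (log2 fold change -0.12 ± 0.047, SE, edgeR adjusted p = 0.261). Neither passed the test there. Lamb1 was at 255, 244, 254 and 260.3 CPM in WT MI and 235, 245, 224 and 239.8 CPM in KO MI (log2 fold change -0.10 ± 0.052, SE, edgeR adjusted p = 0.451).

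The ratio of Lama4 to Lama2 counts needs no scaling between libraries and was computed after these values were seen. It was 0.744, 0.721, 0.767 and 0.737 in WT SH and 0.617, 0.617, 0.657 and 0.612 in KO SH, with means of 0.742 ± 0.0191 and 0.626 ± 0.0212 (SD, n = 4). The difference was -0.25 on the log2 scale (exact permutation p = 0.0286, two-sided), between -0.27 and -0.23 when 1 library was left out. KO SH 3 and 4, which like all WT SH libraries had Xist under 100 CPM, gave 0.657 and 0.612. Post-MI the ratio was 0.749 ± 0.0146 in WT MI and 0.714 ± 0.0555 in KO MI, which overlapped (exact permutation p = 0.371). Within KO it was higher post-MI than in sham hearts, by 0.19 on the log2 scale and without overlap (exact permutation p = 0.0286), a comparison that shares the KO SH libraries. Endothelial markers, 8 genes led by Kdr, summed to 987, 960.1, 988 and 975 CPM in WT SH and 885, 906, 922 and 929 CPM in KO SH, without overlap, and 0 of the 8 were called there by edgeR or DESeq2 (2 with an unadjusted p under 0.05). The 8 smooth muscle and pericyte markers summed to 926, 867, 829.5 and 815 CPM in WT SH and 716, 758, 775 and 738 CPM in KO SH, also without overlap, and Acta2 was the 1 gene of them called there (log2 fold change -0.56, edgeR adjusted p = 0.0396). The part of either marker list in the levels of Lama4 and Lamc1 was not tested.

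**Figure D5:**
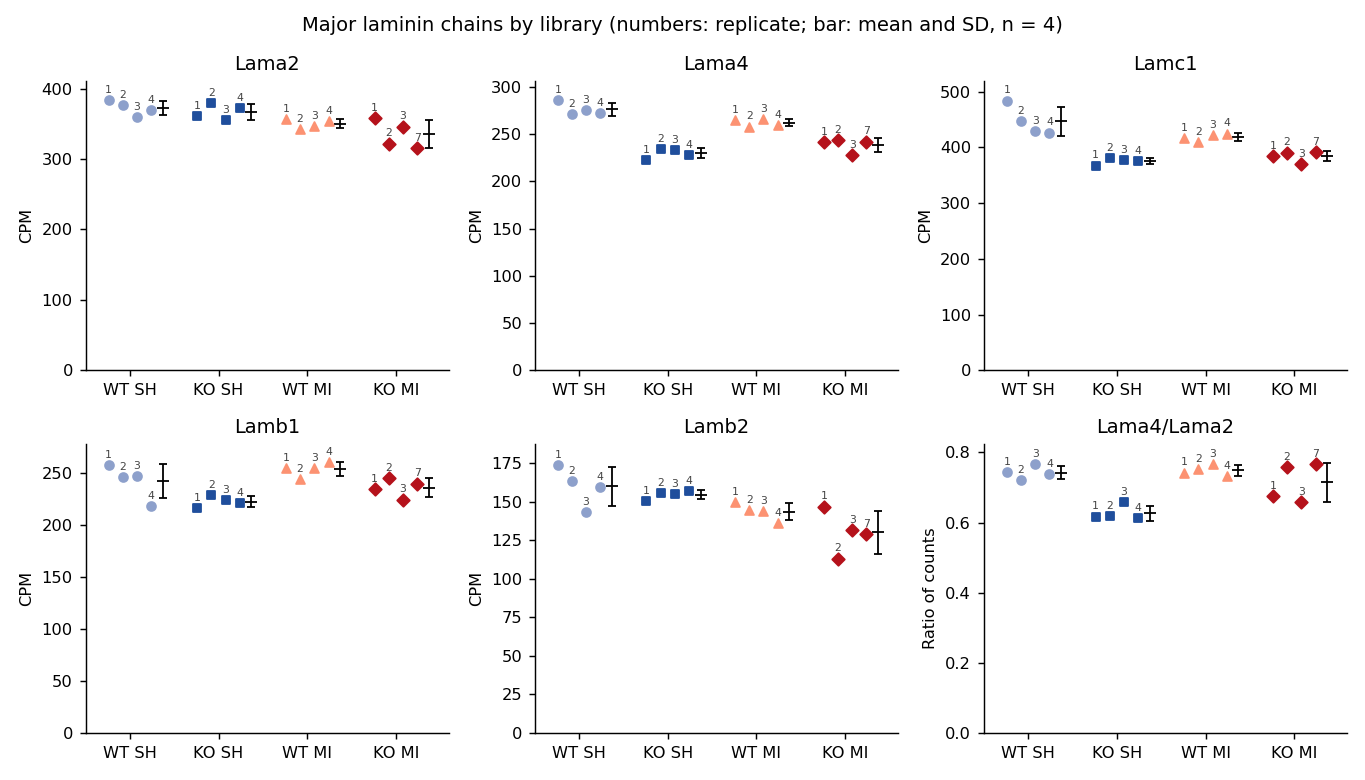
Levels in CPM of the 5 most abundant laminin chains and the ratio of Lama4 to Lama2 counts in each of the 16 libraries, on axes from 0. Points carry their replicate number and bars give the mean and SD of 4 libraries. The 4 KO SH libraries lie below the 4 WT SH libraries for Lama4, Lamc1 and the ratio, while Lama2 overlaps.

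Receptor chains also differed in sham hearts below the minimum fold. The collagen receptor Itga2 was at 4.44, 4.30, 4.55 and 4.45 CPM in WT SH and 2.73, 3.81, 3.46 and 3.30 CPM in KO SH, all lower in KO (log2 fold change -0.42 ± 0.11, SE, edgeR adjusted p = 0.0269). The laminin receptor Itga3 was at 9.19, 9.73, 10.6 and 8.51 CPM in WT SH and 14.0, 12.7, 12.0 and 13.9 CPM in KO SH, all higher in KO (log2 fold change 0.47 ± 0.12, SE, edgeR adjusted p = 0.0218). Itga8 ran from 13.3 to 14.6 CPM in WT SH and from 15.3 to 18.0 CPM in KO SH (log2 fold change 0.25 ± 0.086, SE, edgeR adjusted p = 0.0815), and its adjusted p was 0.1 or more in 6 of 8 fits without 1 library. Itga6 was at 84.1, 90.5, 90.3 and 92.5 CPM in WT SH and 76.9, 79.3, 84.2 and 79.1 CPM in KO SH, with KO SH 3 just above WT SH 1 (log2 fold change -0.16 ± 0.048, SE, edgeR adjusted p = 0.0481; 0.1 or more in 5 of 8 such fits). Itga2b, Itgb1 and Itgb5 lay higher and Lamb3 and Itga1 lower in every KO SH library without passing the test, with log2 differences from -0.47 for Lamb3 to 0.49 for Itga2b.

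Itgb1bp2 was at 115, 87.8, 83.2 and 70.4 CPM in WT SH and 69.2, 72.3, 70.5 and 68.1 CPM in KO SH, and at 73.9, 87.7, 80.0 and 75.2 CPM in WT MI and 80.1, 83.5, 78.6 and 70.9 CPM in KO MI. WT SH 1 was well above all other libraries, and the sham difference (log2 fold change -0.35 ± 0.10, SE, edgeR adjusted p = 0.0481) had an adjusted p of 0.1 or more in 3 of 8 fits without 1 library, WT SH 1 among them. The 8 cardiomyocyte markers summed to 87859.8, 79501, 81469 and 74982 CPM in WT SH and 69555, 67407, 68996 and 67266 CPM in KO SH. None of the 8 was called there by edgeR or DESeq2, with 6 at an unadjusted p under 0.05 and 4 lower at an adjusted p under 0.1, and their part in the Itgb1bp2 level was not tested.

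Further chains were not called in any comparison with all libraries. Itga5 ran from 60.6 to 70.8 CPM in 15 libraries, and KO MI 2 was at 91.2 CPM. Itgb5 was at 22.1, 21.4, 20.8 and 20.7 CPM in WT SH, 22.4, 23.2, 22.7 and 24.8 CPM in KO SH, and post-MI at 25.5, 22.0, 23.0 and 22.7 CPM in WT and 22.0, 29.6, 24.1 and 30.1 CPM in KO. Its highest levels were in KO MI 2 and 7. Itgb3, the partner of Itgav and Itga2b, ran from 6.06 to 8.64 CPM over the 16 libraries. Itga6 had log2 fold changes post-MI of -0.12 ± 0.048 in WT and -0.059 ± 0.048 in KO (SE), neither passing the test. Itga10 ran from 0.630 to 1.53 CPM over the 16 libraries. Lama5, which overlaps Adrm1 on the other strand, ran from 29.5 to 57.6 CPM. Post-MI in KO it was called lower with KO MI 2 and 7 left out together (log2 fold change -0.51, edgeR adjusted p = 0.0171).

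Proteins that work with integrins and laminins were followed in 4 lists. Of 35 tested genes of the adhesion complex that links integrin tails to actin, 3 were called higher and 0 lower post-MI in KO. This is 8.57% of the list, close to the 7.42% of all genes. They were the crosslinker Actn1 (log2 fold change 0.59 ± 0.12, SE, edgeR adjusted p = 0.00598), the kinase Ptk2b (log2 fold change 0.98 ± 0.21, SE, edgeR adjusted p = 0.00755) and Fermt3, the kindlin of blood cells (log2 fold change 0.66 ± 0.17, SE, edgeR adjusted p = 0.0183). Without KO MI 2 or KO MI 3 the count was 2. Post-MI in WT 1 of 35 was called, Ptk2b (log2 fold change 1.05 ± 0.21, SE, edgeR adjusted p = 0.0128). The list's median log2 fold change was 0.12 in KO and -0.0089 in WT. None of the 35 was called between genotypes by edgeR or DESeq2, with 6 post-MI and 9 in sham hearts at an unadjusted p under 0.05.

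Of 23 tested integrin ligands other than laminins, 6 were called higher and 2 lower post-MI in KO, and 3 higher in WT. These are 34.8% of the list in KO, against 7.42% of all genes, and 13% in WT, against 2.78%. In KO 1 ligand was called lower without KO MI 2, without KO MI 3 and with KO MI 2 and 7 left out together. The 4 ligands described for KO post-MI are those with the lowest adjusted p, and all were higher. Tenascin C (Tnc), a ligand of Itga9 that appears in wounded heart, was at 26.8, 22.4, 15.7 and 22.2 CPM in WT SH and 38.9, 40.1, 44.0 and 37.6 CPM in WT MI (log2 fold change 0.88 ± 0.17, SE, edgeR adjusted p = 0.0088). It was at 13.6, 16.4, 15.3 and 15.1 CPM in KO SH and 30.7, 61.8, 39.1 and 41.6 CPM in KO MI (log2 fold change 1.52 ± 0.17, SE, edgeR adjusted p = 0.000269). Fibronectin (Fn1), the ligand of Itga5, rose in both genotypes (log2 fold change 0.55 ± 0.13, SE, edgeR adjusted p = 0.0329 in WT; log2 fold change 0.96 ± 0.13, SE, edgeR adjusted p = 0.000753 in KO). Periostin (Postn) and Col1a2 rose post-MI in KO (0.60 and 0.68 on the log2 scale, edgeR adjusted p = 0.000269 and 0.000753), and Icam1, a ligand of Itgal and Itgam with Itgb2, rose in WT (log2 fold change 0.53 ± 0.10, SE, edgeR adjusted p = 0.00785). In sham hearts Tnc and Thbs1 were called lower in KO (-0.53 and -0.72 on the log2 scale, edgeR adjusted p = 0.0625 and 0.0674). Between genotypes post-MI no ligand was called by edgeR or DESeq2, with 4 of 23 at an unadjusted p under 0.05.

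Markers of the cells that make or contract this matrix were read in the same KO hearts. Of 8 smooth muscle and pericyte markers, Acta2, Cnn1 and Tagln, contractile genes that myofibroblasts also use, were called higher post-MI in KO (log2 fold changes 0.72, 1.93 and 1.03, edgeR adjusted p = 0.00899, 0.0111 and 0.0252), also with KO MI 2 and 7 left out together. Another 3 of the 8 were lower at an adjusted p under 0.1 below the minimum fold. The sum of the 8, led by Rgs5, was 716, 758, 775 and 738 CPM in KO SH and 789.8, 771, 749 and 704 CPM in KO MI, which overlapped. Of 7 fibroblast markers led by Dcn, none was called there by edgeR or DESeq2, with 2 at an unadjusted p under 0.05. They summed to 478, 519.9, 519 and 532 CPM in KO SH and 566, 511, 615 and 589 CPM in KO MI, where KO MI 2 lay inside the sham range. No marker of either list was at 0, and their part in the levels of the ligands and of Itga11 was not tested.

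Of 18 basement membrane partners of laminins, Frem2, which holds epithelia to their basement membrane in development, differed by genotype in both surgeries. It was at 84.1, 82.7, 84.6 and 91.3 CPM in WT SH and 158, 151, 135 and 149 CPM in KO SH (log2 fold change 0.79 ± 0.10, SE, edgeR adjusted p = 0.000201). It was at 73.0, 84.6, 81.1 and 72.2 CPM in WT MI and 179, 237, 175 and 146 CPM in KO MI (log2 fold change 1.24 ± 0.10, SE, edgeR adjusted p = 2.78e-06), so all 8 KO libraries were above all 8 WT libraries. Its relative Frem1 was called higher in KO SH (log2 fold change 0.50 ± 0.12, SE, edgeR adjusted p = 0.0161), though not by DESeq2, and Col4a6, a basement membrane collagen chain, rose post-MI in KO (log2 fold change 0.76 ± 0.21, SE, edgeR adjusted p = 0.028), a call lost with KO MI 2 and 7 left out together. No other gene of this list was called in any comparison.

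Among 21 genes for laminin receptors other than integrins, Bcam was called lower in KO in both surgeries. Bcam, the Lutheran receptor for Lama5, had log2 differences of -0.52 ± 0.12 in sham hearts and -0.54 ± 0.12 post-MI (SE, edgeR adjusted p = 0.015 and 0.0266). Post-MI against sham none of the 21 was called by edgeR or DESeq2 in either genotype, with 3 in WT and 4 in KO at an unadjusted p under 0.05.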

How the data were processed

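The submitters' processing notes list bcl2fastq, cutadapt, FastQC, HISAT2, RSEM and DESeq2 with GRCm39, while the study's methods name Skewer and STAR before RSEM, so which trimmer and aligner made the table is uncertain. The annotation release is not given in the sources used here. Values are RSEM expected counts, deposited by the authors as whole numbers for 51912 gene IDs, of which 47772 matched GENCODE M39. Libraries were stranded, but the strand setting of the counting is not given in the sources used here, so reads of Lamb1 and Dld or Lama5 and Adrm1 may not be told apart. Itga1, Lama2 and Lamc1 overlap genes on their own strand.

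All 16 libraries and 20159 genes, each with a summed count of 10 or more per group, were fitted with edgeR 4.0.16 (limma 3.58.1, R 4.3.3; TMM scaling, quasi-likelihood test, Benjamini-Hochberg adjustment over all genes). DESeq2 1.42.0 served as an alternative. Permutation tests were exact over 4 against 4 libraries, on log2(CPM + 0.5) for genes and on the log2 ratio of counts for ratios. Named genes were those called, the 3 highest per length of each class and up to 4 called genes per companion list. Genes and lists were chosen with earlier results of these data known. Results for a few genes are not reported here. The code was tested on simulated counts.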

Additional observations from a re-analysis of the deposited data

Results flagged for a closer look

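In each group of 4 libraries the gap between the highest or the lowest library and its nearest neighbour was set against the group's whole range. Of 144 groups, 36 genes in 4 groups, 10 (6.94%) had a library past Dixon's critical value, where chance gives about 1 in 20. In KO MI 2, Itga11 was high at 2.87 CPM and Itga5 at 91.2 CPM. In KO MI 3, Lama4 was low at 228 CPM and Itgad at 0.0385 CPM, the latter from 2 counts. Lama5 was high at 57.6 CPM in KO MI 7 and low at 36.1 CPM in KO SH 1. Itgav was low at 46.8 CPM in KO SH 4, Itgb4 high at 3.08 CPM in WT MI 4 and Itga10 low at 0.692 CPM in WT SH 1. Itgb7 was low at 0.0841 CPM in WT MI 1. None of these libraries was left out of the values in the report unless said there.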

How the results depend on the processing

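Counts of called genes among the 36 were 0 in KO MI against WT MI, 0 in KO SH against WT SH, 2 in WT MI against WT SH, 11 in KO MI against KO SH and 0 in the interaction. Of 95 recomputed counts 74 stayed within 1.5 times these values, where a count that stayed at 0 was taken as unchanged. The count post-MI in KO ran from 6 to 18 over the settings. With no minimum fold the counts were 2 between the MI groups, 7 between the sham groups and 18 post-MI in KO. With the replicate number as a block they were 2 between the MI groups (Itga9 and Itgb1), 12 post-MI in KO and 1 in the interaction. Number 7 exists only in KO MI, so this block takes KO MI 7 out of the comparisons. Leaving out KO MI 7 without a block called the same genes in these comparisons. The numbers do not pair the samples, as the correlations of deviations between libraries of the same number ran from -0.06 to 0.11. With sex inferred from Xist as a covariate, 1 gene was called between sham groups (Itga2b). With no filter and with filterByExpr, 4 were called post-MI in WT, adding Itgax and Lama1. DESeq2 called 3 post-MI in WT, adding Lamc3. The interaction gave 1 by DESeq2 (Itga9) and 2 with KO MI 2 and 7 left out together (Itga3 and Itga9). That setting left 8 post-MI in KO, of which 7 were among the 11. Fitting only the groups of the contrast also left 8 post-MI in KO, all among the 11, with Itgb4, Itgb6 and Itgb8 lost. Leaving out 1 library gave 0 to 2 between the MI groups, 0 to 2 between the sham groups, 1 to 2 post-MI in WT, 6 to 12 post-MI in KO and 0 to 1 in the interaction. Itgb2 in both genotypes and Itgam in KO were called in every alternative run. No direction reversed in these alternatives. At depths of 33783874 to 57470159 counts, genes near 0.1 CPM rest on a few counts, which limits Itgad, Itgb7, Itgb2l, Lama1 and Lamc3.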

Other observations

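Of the 39 genes, 4 lie on chromosome 10, which also carries the deleted Lrrc10. Itga7 lies 11.9 Mb, Itgb2 39.5 Mb, Lama4 77.9 Mb and Lama2 89.4 Mb from Lrrc10. Alleles on this chromosome were not examined here.

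The ratio of Itgam to Itgb2 counts, the 2 chains of 1 receptor, overlapped between all groups. It averaged 2.28 ± 0.691 in WT SH, 1.59 ± 0.368 in KO SH, 1.69 ± 0.322 in WT MI and 2.49 ± 0.823 in KO MI (SD, n = 4; exact permutation p from 0.0857 to 0.257 over the 4 comparisons).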
